A study of Homo sapiens with 58 samples.

Results

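The genes described here are 10 genes of the interferon-linked and antigen-presenting response of keratinocytes, IRF1, GBP1, GBP2, GBP4, PSMB8, PSMB9, TAP1, TAP2, B2M and ERAP2, followed across a set of HaCaT lines. They were taken by name, as 10 of the 19775 genes that the arrays represent, and each was read through 1 of 25 probe sets that carry a single member symbol, the one that was brightest on average across the 58 arrays. HaCaT is an immortalized human keratinocyte line. The variants were HaCaT-p65, which overexpresses the NF-κB subunit p65, HaCaT-HRAS, which carries mutant HRAS, HaCaT-EGFR, which overexpresses wild-type EGFR, and HaCaT-vector, which carries the vector alone, and all of them share the HaCaT background. In serum, HaCaT-p65 and HaCaT-HRAS had 3 arrays each and HaCaT-EGFR had 5, while HaCaT-vector and unmodified HaCaT had 3 each. These were labelled 0 h, except for 1 HaCaT-EGFR array at 4 h and 1 at 8 h. The treated cells had first been held without serum. TNF-α was measured on 5 HaCaT-p65 arrays (4 at 4 h and 1 at 8 h) against 3 starved HaCaT-p65 arrays (2 at 4 h and 1 at 8 h), and on 3 HaCaT-vector arrays against 4 starved HaCaT-vector arrays, all at 4 h. EGF was measured on 7 HaCaT-EGFR arrays against 7 starved ones, both groups with arrays at 4 h and at 8 h. It was also measured on 4 HaCaT-vector arrays against 4 starved ones, all at 4 h. A few further HaCaT-EGFR and HaCaT-vector arrays carried gefitinib, LY294002 or U1026, inhibitors of EGFR, PI3K and MEK. Overexpression was forced, and nothing in the labels says that arrays of a group came from separate cultures, so the p-values below measure the spread between these arrays only. Some arrays counted separately share a replicate number, time and processing date, such as those labelled replicate 2 of HaCaT-p65 with TNF-α.

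IRF1 is a transcription factor that is induced by interferon-γ and by TNF-α and that switches on genes carrying an interferon-stimulated response element (ISRE). Its own promoter is known for a γ-activated site (GAS) and for an NF-κB site. Guanylate-binding proteins (GBPs) are interferon-induced GTPases of cell-autonomous defence. In class I presentation, the immunoproteasome subunits PSMB8 and PSMB9 cut proteins into peptides, the TAP1-TAP2 transporter carries the peptides into the endoplasmic reticulum, ERAP2 trims them there, and B2M is the invariant light chain of the class I molecule. Keratinocytes display class I at rest and raise it in inflamed skin.

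Because IRF1 and NF-κB are known through the DNA sites they bind, the promoters of the members were read for 3 motifs. Of the 10 genes, 9 (all but GBP2) had an entry among RefSeq promoter windows of GRCh38.p14, which run from 250 bases before to 50 bases after a start site, with 12 windows in all. The letters searched on both strands were a pair of GAAA with any 2 bases between them for ISRE and TTCNNNGAA for GAS, and the NF-κB consensus is given by name. An ISRE match lay in at least 1 window of 7 of the 9 genes. By window this was 7 of the 12, and 3.57% of all 35116 windows held one. A GAS match lay in 3 of the 12 windows, of 3 genes (7.66% of all windows), and an NF-κB match in 4 of the 12, of 4 genes (11.3% of all windows). Stretches of 7 genes that hold matches upstream of a start site follow, written along the gene, with the matching letters in capitals. IRF1 is shown because it has both a GAS and an NF-κB match, TAP1 and B2M because they have ISRE and NF-κB matches together, and GBP1, GBP4, TAP2 and ERAP2 because each has 1 upstream ISRE or NF-κB match.
IRF1 (chr5:132490806-132490905, minus strand): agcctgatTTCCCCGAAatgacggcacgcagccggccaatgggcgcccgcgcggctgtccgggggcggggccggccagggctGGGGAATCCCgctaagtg
TAP1 (chr6:32853759-32853846, minus strand): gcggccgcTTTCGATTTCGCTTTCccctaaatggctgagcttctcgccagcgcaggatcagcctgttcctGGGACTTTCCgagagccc
B2M (chr15:44711365-44711409, plus strand): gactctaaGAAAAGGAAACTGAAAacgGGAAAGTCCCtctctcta
GBP1 (chr1:89065313-89065348, minus strand): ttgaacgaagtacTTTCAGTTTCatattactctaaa
GBP4 (chr1:89198968-89198997, minus strand): ttgataaacaGGAAAATCCCcaacagtcaa
TAP2 (chr6:32838775-32838809, minus strand): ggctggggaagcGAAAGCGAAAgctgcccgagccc
ERAP2 (chr5:96876458-96876487, plus strand, the second of 2 windows): aatcttagaacaGAAAGTGAAAgcaaaagt
In IRF1 the GAS match began 124 bases and the NF-κB match 50 bases before the start site. The NF-κB match was found on either strand. The GAS letters read the same on either strand, so every GAS match is on both. In TAP1 and in B2M a pair of ISRE matches overlapped each other. GBP4 and PSMB8 also had an ISRE match that spanned the start site itself, and PSMB8 had a GAS match 65 bases before it. A second TAP1 window had a GAS match 189 bases before its start site. The PSMB9 window held none of the 3 motifs. PSMB9 and TAP1 lie head to head, with 488 bases between their start sites, and on chromosome 6 the genes run in the order TAP2, PSMB8, TAP1, PSMB9. The ISRE and NF-κB matches shown for TAP1 lie between these start sites, beyond the 250 bases read before PSMB9. A match of letters is a description of the sequence and not a measured site.

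All values below are the deposited log2 expression values, so 1 unit is a doubling, and a difference is tested with limma with Benjamini-Hochberg adjustment over 19775 genes at a threshold of 0.05. Where groups are said not to overlap, this describes the arrays. The share of all genes without overlap was not counted, so it adds nothing to a test that did not pass. The medians of the arrays ranged between 4.98 and 5.24, and no pair of arrays was identical. The keratinocyte genes KRT5, KRT14, CDH1 and DSP stood between 8.81 and 13.4 on every array. The leukocyte genes PTPRC, CD3E, CD14 and ITGAM stood between 3.14 and 5.16. One HaCaT-p65 array, labelled TNF-α at 4 h, replicate 3, is described as a 4 h control in the study's sample sheet. The TNF-α calls of the members in HaCaT-p65, and some counts of pathway genes, are given with and without it. Other results that include this array are given only with it. Among these are the sizes of change of single pathway genes, the condition means, their orders and the correlations over them.

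TNF-α raised 3 of the 10 genes in HaCaT-p65 and 6 of the 10 in HaCaT-vector, where 0.698% and 0.885% of all genes tested rose. In HaCaT-p65 the risers were the 3 GBPs. In HaCaT-vector they were IRF1, GBP1, GBP4, PSMB9, TAP1 and ERAP2, which are the transcription factor, 2 of the 3 GTPases, 1 immunoproteasome subunit, 1 of the 2 transporter subunits and the trimming enzyme. None of the 10 fell in either line, where 1.34% and 0.0202% of all genes did. The median change over the 10 genes was 0.45 in HaCaT-p65 and 1.08 in HaCaT-vector, against medians of -0.05 and -0.01 over all genes.

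**Figure D1:**
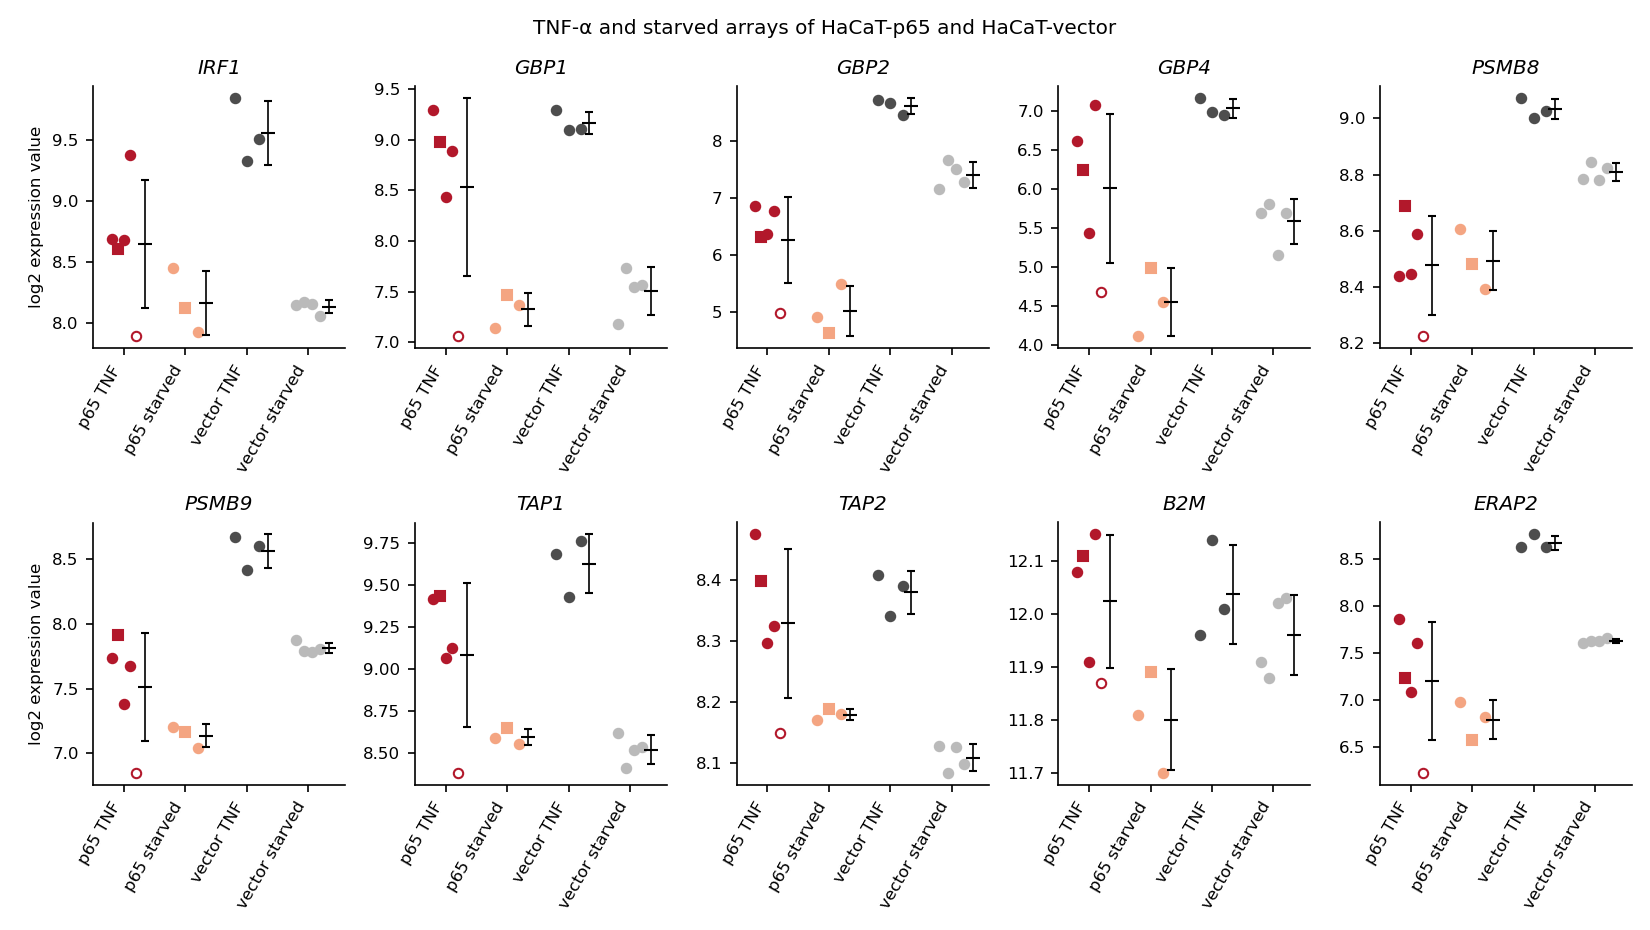
Log2 expression value (vertical axis) of each of the 10 genes on every TNF-α and starved array of HaCaT-p65 and HaCaT-vector. Circles are 4 h, squares 8 h, the open circle is the HaCaT-p65 array of doubtful label, and bars give mean ± SD; each panel has its own axis. In HaCaT-vector IRF1 lay between 9.33 and 9.84 with TNF-α, above all starved arrays.

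IRF1 stood at 8.69, 8.61, 8.68, 9.37 and 7.89 on the 5 HaCaT-p65 arrays with TNF-α, against 8.45, 8.13 and 7.93 on the starved HaCaT-p65 arrays. In HaCaT-vector it stood at 9.84, 9.33 and 9.50 with TNF-α, against 8.15, 8.17, 8.16 and 8.06 starved. The HaCaT-vector groups were far apart, whereas the HaCaT-p65 groups overlapped through the array of doubtful label, which was the lowest of all. The change was 0.48 ± 0.17 (SE) in HaCaT-p65, which did not pass (limma, adjusted p = 0.128), and 1.42 ± 0.19 in HaCaT-vector, a 2.68-fold rise (limma, adjusted p = 8e-06).

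GBP1 was at 9.30, 8.98, 8.44, 8.89 and 7.06 in HaCaT-p65 with TNF-α, against 7.15, 7.46 and 7.37 starved. The TNF-α arrays were higher than every starved array except the array of doubtful label, which was lower than all. The corresponding HaCaT-vector values were 9.29, 9.09 and 9.11 with TNF-α, against 7.18, 7.73, 7.55 and 7.57 starved, with no overlap. The rises were 1.21 ± 0.32 in HaCaT-p65 (limma, adjusted p = 0.0380) and 1.66 ± 0.35 in HaCaT-vector (limma, adjusted p = 0.00543). The probe set chosen for GBP1 is of a type that can bind transcripts of similar sequence, and the GBPs are similar to each other. A second GBP1 probe set differed by 1.22 in HaCaT-p65 and by 1.71 in HaCaT-vector. The arrays hold a further GBP1 probe set, whose differences with TNF-α are not given here.

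GBP4 read 6.62, 6.24, 5.44, 7.08 and 4.69 in HaCaT-p65 with TNF-α, against 4.12, 4.995 and 4.55 starved. Its rise in HaCaT-p65, 1.46 ± 0.32 (limma, adjusted p = 0.0133), was the 12th largest of all 19775 genes. In HaCaT-vector GBP4 read 7.17, 6.99 and 6.95 with TNF-α, against 5.69, 5.81, 5.16 and 5.69 starved, a rise of 1.45 ± 0.36 (limma, adjusted p = 0.0281). The changes were of like size, while the starved arrays averaged 4.55 in HaCaT-p65 and 5.59 in HaCaT-vector, a difference that did not pass (limma, adjusted p = 0.255).

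GBP2 was at 6.86, 6.32, 6.36, 6.78 and 4.98 in HaCaT-p65 with TNF-α, against 4.91, 4.64 and 5.50 starved, a rise of 1.24 ± 0.33 (limma, adjusted p = 0.0426). In HaCaT-vector it was at 8.72, 8.66 and 8.45 with TNF-α, against 7.17, 7.67, 7.503 and 7.27 starved. That difference, 1.21 ± 0.37, had a similar size and no overlap between groups but did not pass (limma, adjusted p = 0.149). It passed with no date term (limma, adjusted p = 0.0367) and with the compared groups fitted alone (limma, adjusted p = 0.0179). Leaving out the date term changed the standard error and not the estimate, so the first of these calls adds no support. Every HaCaT-p65 array with TNF-α lay below every starved HaCaT-vector array for GBP2. The HaCaT-p65 and HaCaT-vector arrays of these groups share no processing date.

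Among the presentation genes, TAP1 was at 9.42, 9.44, 9.06, 9.13 and 8.38 in HaCaT-p65 with TNF-α, against 8.59, 8.65 and 8.55 starved. It was at 9.68, 9.43 and 9.76 in HaCaT-vector with TNF-α, against 8.62, 8.41, 8.52 and 8.54 starved. The difference was 0.49 ± 0.15 in HaCaT-p65 (limma, adjusted p = 0.0695) and 1.10 ± 0.16 in HaCaT-vector (limma, adjusted p = 3.2e-05), where the rise was 2.15-fold with no overlap.

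ERAP2, the trimming peptidase, was at 7.87, 7.23, 7.08, 7.61 and 6.22 in HaCaT-p65 with TNF-α, against 6.98, 6.57 and 6.82 starved. In HaCaT-vector it was at 8.63, 8.77 and 8.64 with TNF-α, against 7.61, 7.62, 7.63 and 7.66 starved, and it rose by 1.05 ± 0.24 there (limma, adjusted p = 0.0170). PSMB9 rose by 0.75 ± 0.18 in HaCaT-vector (limma, adjusted p = 0.0301), with 8.67, 8.42 and 8.60 with TNF-α against 7.87, 7.79, 7.78 and 7.81 starved. In HaCaT-p65 the PSMB9 change of 0.37 ± 0.17 and the ERAP2 change of 0.41 ± 0.22 did not pass. PSMB9 lies head to head with TAP1, and only the TAP1 window held motif matches. The matches before the TAP1 start site also lie before that of PSMB9, but outside the window read for PSMB9.

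The partners of these genes moved less. PSMB8, the other immunoproteasome subunit, differed by -0.02 ± 0.10 in HaCaT-p65 and 0.22 ± 0.11 in HaCaT-vector, and TAP2, the partner of TAP1, by 0.15 ± 0.08 and 0.27 ± 0.09, and none of these passed (limma, adjusted p = 0.957, 0.789, 0.331 and 0.228). In HaCaT-vector the arrays of both genes did not overlap, with PSMB8 at 9.00 to 9.07 with TNF-α against 8.78 to 8.85 starved and TAP2 at 8.34 to 8.41 against 8.08 to 8.13. How many of all genes separate these few arrays was not counted. B2M, the light chain, differed by 0.23 ± 0.10 in HaCaT-p65 and 0.08 ± 0.11 in HaCaT-vector, and its arrays overlapped in both lines.

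Without the array of doubtful label, 7 of the 10 genes rose with TNF-α in HaCaT-p65, against 1.25% of all genes. IRF1 (0.65, limma adjusted p = 0.00925), TAP1 (0.65, adjusted p = 0.00116), PSMB9 (0.53, adjusted p = 0.0375) and ERAP2 (0.63, adjusted p = 0.0452) then joined the GBPs, whose changes became 1.54 for GBP1, 1.53 for GBP2 and 1.76 for GBP4. PSMB8, TAP2 and B2M still did not pass. Leaving out the 8 h arrays instead, with that array kept, left 0 genes of the 10 and 66 of all genes past the threshold (0.334%), and leaving out both left 5, which were the 3 GBPs, IRF1 and TAP1 (0.627% of all genes rose). The count of 3 was also lost, to 0, without the first starved array, the first TNF-α array at 4 h or the TNF-α array at 8 h. In HaCaT-vector IRF1 and TAP1 passed with any 1 array left out, while the other 4 calls were lost together without starved replicate 3 or TNF-α replicate 1.

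**Figure D2:**
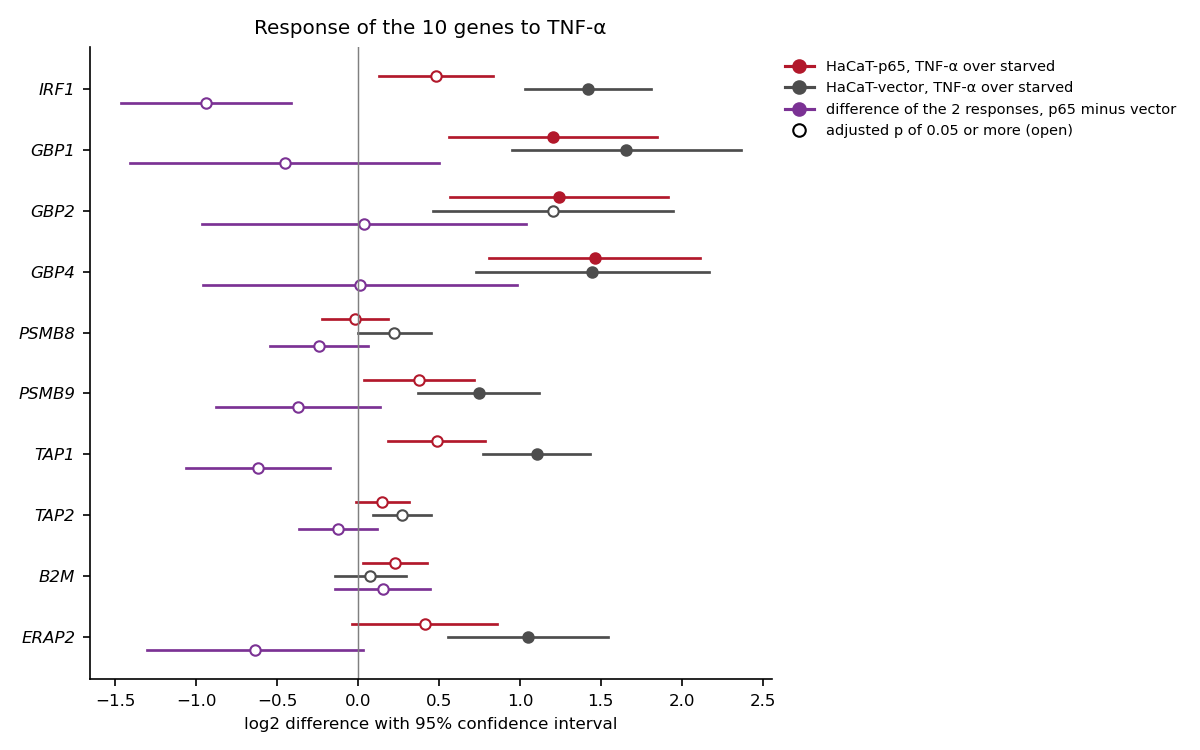
Log2 difference (horizontal axis) with its 95% confidence interval for each of the 10 genes, TNF-α over starved in HaCaT-p65 and in HaCaT-vector, and the difference of both responses. Filled points passed the adjusted threshold; no difference of responses did, and the interval for IRF1, -1.46 to -0.41, lay farthest below 0.

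The difference between the lines in the response to TNF-α was tested as an interaction. It passed for 0 of the 10 genes, and 0.0101% of all genes passed. IRF1 came nearest, with a response smaller by 0.94 ± 0.26 in HaCaT-p65 (limma, adjusted p = 0.363), followed by TAP1 with a response smaller by 0.62 ± 0.22 (limma, adjusted p = 0.540). In the limma test these were the 2 genes of the 10 with an unadjusted p under 0.05. For GBP2 and GBP4 the estimates were 0.04 and 0.01 with 95% intervals of -0.97 to 1.04 and -0.96 to 0.98, so that differences of nearly 1 log2 unit in either direction were not excluded. Without the array of doubtful label the IRF1 estimate was -0.77 (adjusted p = 0.405). Of 15 arrays left out 1 at a time, 1 changed the count of 0. Without that array, the TNF-α array of HaCaT-p65 at which IRF1 was highest, IRF1 passed, with the array of doubtful label kept.

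The wider pathway was counted in 54 measured genes outside the 10, of which 5 rose in HaCaT-p65 and 14 rose in HaCaT-vector with TNF-α, and none fell. Of all genes 0.698% and 0.885% rose. The known TNF-α targets TNFAIP3 and ICAM1 rose by 1.51 ± 0.24 and 1.18 ± 0.32 in HaCaT-p65 and by 2.65 ± 0.27 and 2.48 ± 0.36 in HaCaT-vector, and NFKBIA by 1.99 ± 0.21 in HaCaT-vector but not past the threshold in HaCaT-p65 (0.66 ± 0.19, limma adjusted p = 0.0572). Without the array of doubtful label all 3 of these targets rose in HaCaT-p65, where 1.25% of all genes did. For 1 of the 3 the response was then smaller than in HaCaT-vector past the threshold, as for 0.0152% of all genes. Of 7 peptide-loading genes 1 then fell in HaCaT-p65, where 2.56% of all genes did. CXCL10 and CXCL11, chemokines induced by interferon-γ, rose by 3.59 ± 0.53 and 3.08 ± 0.36 in HaCaT-vector, and CXCL11 by 1.28 ± 0.33 in HaCaT-p65. The GTPase GBP3 rose by 0.84 ± 0.17 in HaCaT-p65 and 1.36 ± 0.19 in HaCaT-vector. Of 8 measured genes of the interferon receptors and their downstream signalling, 3 rose in HaCaT-p65 and 4 in HaCaT-vector. Of the 4 receptor chains among them, 3 rose in both lines. IFNGR2 rose by 0.82 ± 0.13 in HaCaT-p65 and 0.98 ± 0.14 in HaCaT-vector, IFNAR2 by 0.73 ± 0.16 and 1.03 ± 0.18, and IFNGR1 by 0.69 ± 0.14 and 0.68 ± 0.15. The fourth chain, IFNAR1, differed by -0.02 ± 0.12 in HaCaT-p65 and 0.37 ± 0.14 in HaCaT-vector and did not pass (limma, adjusted p = 0.953 and 0.412).

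Class I heavy chains were among the genes that passed in HaCaT-vector alone, although the difference between lines passed for none of them. Of 5 heavy-chain genes, 0 passed in HaCaT-p65, with or without the array of doubtful label, and 4 rose in HaCaT-vector. These 4, named after their values were seen, were HLA-F (0.54 ± 0.11), HLA-B (0.51 ± 0.12), HLA-E (0.47 ± 0.11) and HLA-C (0.46 ± 0.12). Their probe sets are of the same type as that of GBP1 and can bind similar transcripts. NLRC5, the transactivator of class I genes, stood at 6.29 ± 0.45 with TNF-α and 6.17 ± 0.16 starved in HaCaT-p65 (SD), and at 7.94 ± 0.14 with TNF-α and 6.94 ± 0.12 starved in HaCaT-vector, where it rose by 1.00 ± 0.20 (limma, adjusted p = 0.00395). The proteasome subunits that PSMB8 and PSMB9 replace, PSMB5 and PSMB6, and PSMB7 gave 0 calls in 3 in either line, while PSMB10, another immunoproteasome subunit, picked after its value was seen, rose by 0.59 ± 0.14 in HaCaT-vector. None of 6 class II genes passed in either line. The interferon genes IFNB1, IFNG and IFNL1 had mean values over all arrays of 3.94, 4.07 and 3.83, and no interferon gene passed with TNF-α. IFNK, the keratinocyte interferon-κ, came nearest with 1.11 ± 0.36 in HaCaT-p65 (limma, adjusted p = 0.0921) and 0.73 ± 0.40 in HaCaT-vector.

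In serum, with no ligand added, the lines differed in a few of the 10 genes. Relative to HaCaT-vector, 2 genes were higher in HaCaT-p65 (3.99% of all genes were), 4 were lower in HaCaT-HRAS (8.63% of all genes were) and 0 passed in HaCaT-EGFR (7.87% of all genes did). These 3 comparisons share the same 3 HaCaT-vector arrays. All of their arrays came from 1 processing date and were labelled 0 h except 2 of HaCaT-EGFR, labelled 4 h and 8 h.

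**Figure D3:**
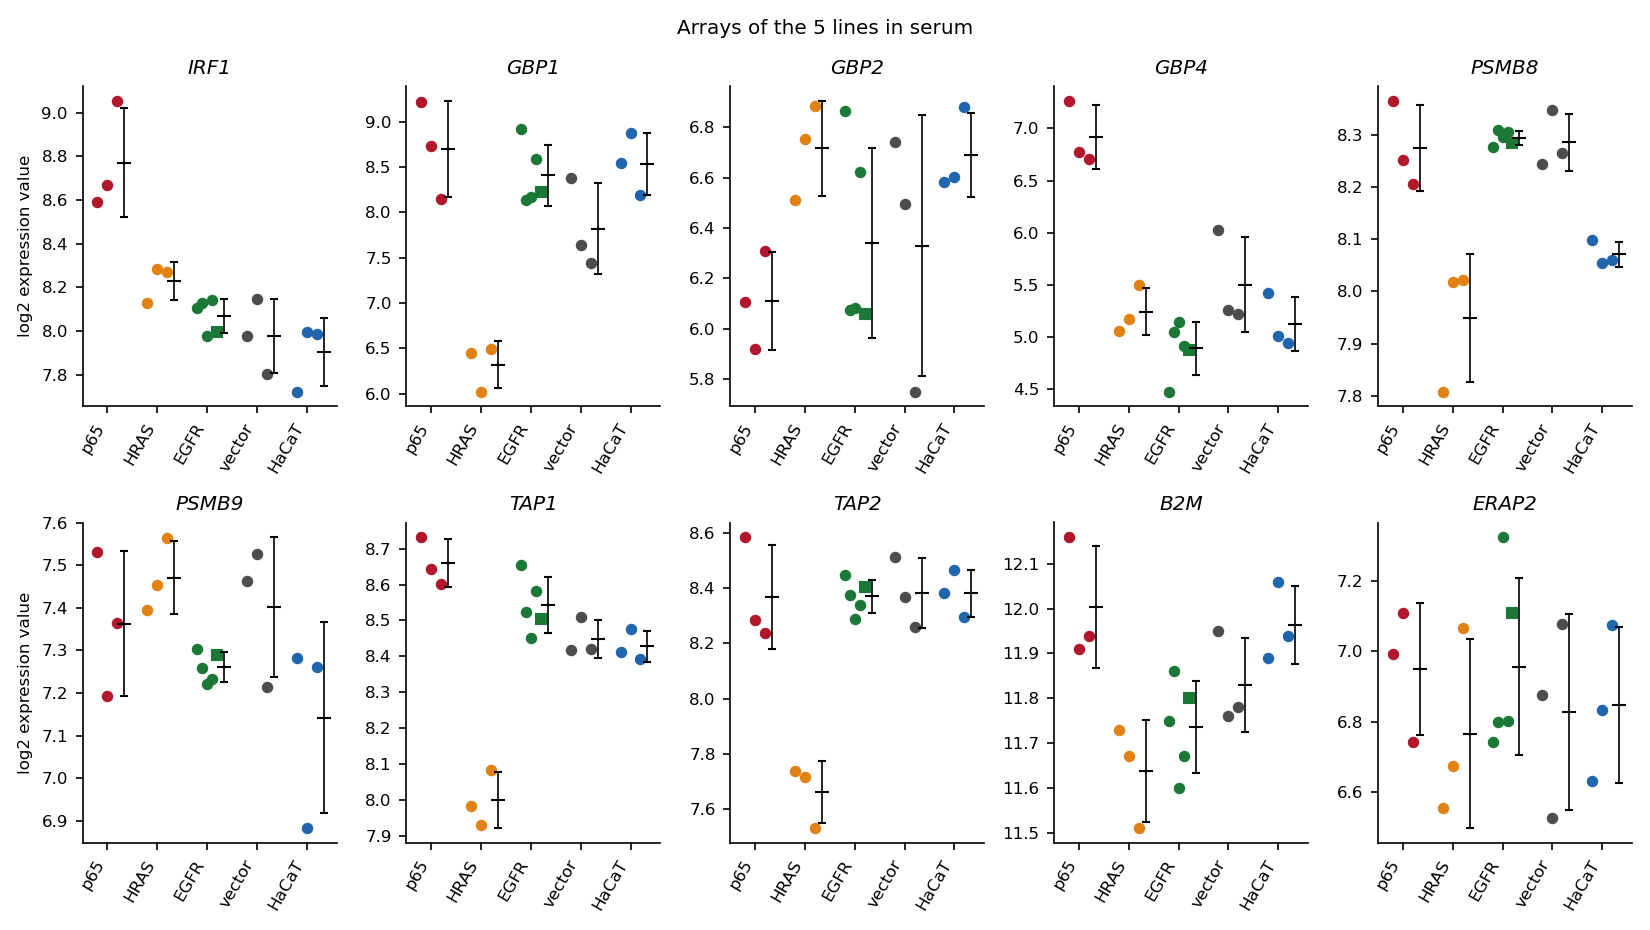
Log2 expression value (vertical axis) of the 10 genes on every array of the 5 lines in serum, with mean ± SD; squares are an array labelled 8 h and each panel has its own axis. IRF1 and GBP4 were highest in HaCaT-p65, and GBP1, TAP1 and TAP2 were lowest in HaCaT-HRAS, without overlap with HaCaT-vector.

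IRF1 stood at 8.59, 8.67 and 9.06 in HaCaT-p65, against 7.98, 8.15 and 7.80 in HaCaT-vector. All 3 HaCaT-p65 arrays were higher than any serum array of another line. The difference was 0.80 ± 0.19 over HaCaT-vector (limma, adjusted p = 0.00476) and 0.87 ± 0.19 over unmodified HaCaT (limma, adjusted p = 0.00230), and the second IRF1 probe set gave 0.91 over HaCaT-vector and passed as well.

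GBP4 stood at 7.27, 6.78 and 6.71 in HaCaT-p65, against 6.02, 5.26 and 5.23 in HaCaT-vector, with no overlap. Its difference was 1.42 ± 0.36 over HaCaT-vector (limma, adjusted p = 0.00687) and 1.79 ± 0.36 over HaCaT (limma, adjusted p = 0.000616). IRF1 and GBP4 were again the 2 genes that passed against HaCaT, where 2.83% of all genes were higher. The GBP4 call against HaCaT-vector was lost without HaCaT-vector replicate 3 and the IRF1 call without HaCaT-p65 replicate 3. The IRF1 call against HaCaT was lost with the arrays of both groups fitted alone (limma, adjusted p = 0.0944).

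GBP1 averaged 8.70 ± 0.53 in HaCaT-p65 and 7.82 ± 0.50 in HaCaT-vector (SD, n = 3 each), and the arrays overlapped (limma, adjusted p = 0.150). A second GBP1 probe set was higher in HaCaT-p65 by 1.21 ± 0.32 and passed (limma over 41097 probe sets, adjusted p = 0.0157). Of the 15 probe sets of the members that were not chosen, 2 passed, this and the second IRF1 probe set. The further GBP1 probe set thus did not pass, and the GBP1 difference is not settled by the probe set that did. The remaining genes differed between HaCaT-p65 and HaCaT-vector by -0.22 for GBP2 to 0.21 for TAP1, and none passed. TAP1 stood at 8.73, 8.64 and 8.60 in HaCaT-p65, above the 8.42, 8.51 and 8.42 of HaCaT-vector on every array, but its difference of 0.21 ± 0.16 did not pass (limma, adjusted p = 0.653).

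HaCaT-HRAS was lower than HaCaT-vector for GBP1, TAP2, TAP1 and PSMB8. GBP1 stood at 6.45, 6.02 and 6.49, against 8.38, 7.64 and 7.44 in HaCaT-vector, and it was 2.83-fold lower (-1.50 ± 0.35, limma, adjusted p = 0.00124). The difference from HaCaT was larger, -2.22 ± 0.35 (limma, adjusted p = 4.71e-06). On 2 further GBP1 probe sets the differences were -1.75 and -1.96, while GBP2 and GBP4 differed from HaCaT-vector by 0.39 ± 0.37 and -0.26 ± 0.36 and did not pass.

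TAP2 stood at 7.74, 7.72 and 7.53 in HaCaT-HRAS, against 8.51, 8.37 and 8.26 in HaCaT-vector. Every HaCaT-HRAS array was lower than every other array of the serum lines, and the difference of -0.72 ± 0.09 had the same size against HaCaT-vector (limma, adjusted p = 2.9e-08) and against HaCaT (limma, adjusted p = 3.45e-08). The other 3 TAP2 probe sets differed by -0.30, -0.50 and -0.74 from HaCaT-vector and did not pass one by one.

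TAP1 stood at 7.98, 7.93 and 8.08 in HaCaT-HRAS, against 8.42, 8.51 and 8.42 in HaCaT-vector (-0.45 ± 0.16, limma, adjusted p = 0.0485). PSMB8 stood at 7.81, 8.02 and 8.02, against 8.25, 8.35 and 8.27 (-0.34 ± 0.11, limma, adjusted p = 0.0271). The groups did not overlap for either gene, yet both calls lay close to the threshold. The TAP1 call was lost without any 1 of the 6 arrays and the PSMB8 call without HaCaT-HRAS replicate 1, HaCaT-vector replicate 2 or HaCaT-vector replicate 3. Against HaCaT, 3 genes were lower in HaCaT-HRAS (8.83% of all genes were), namely GBP1, TAP2 and B2M (-0.33 ± 0.11, limma, adjusted p = 0.0265), and the B2M call was lost without HaCaT replicate 2 or HaCaT-HRAS replicate 3. TAP1 did not pass against HaCaT (-0.43 ± 0.16, limma, adjusted p = 0.0647), but did with no date term (limma, adjusted p = 0.0392) and with a filter on low values (limma, adjusted p = 0.0387). The estimate stayed at -0.43 in both of these fits. PSMB9 and ERAP2, which rose with TNF-α in HaCaT-vector, differed between HaCaT-HRAS and HaCaT-vector by 0.07 ± 0.18 and -0.06 ± 0.24.

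Of the 54 pathway genes outside the members, 8 were higher and 9 lower in HaCaT-HRAS than in HaCaT-vector. Of all genes 8.63% were lower, and the share that was higher is not given here. The counts of higher genes can thus not be set against the general difference between these lines. Of 5 class I heavy-chain genes, 3 were lower than in HaCaT-vector, which were HLA-C (-0.41 ± 0.12), HLA-B (-0.34 ± 0.12) and HLA-F (-0.33 ± 0.11), named after their values were seen. NLRC5, also named after its value was seen, was lower at 6.49 ± 0.21 in HaCaT-HRAS and 7.40 ± 0.08 in HaCaT-vector (SD, n = 3 each; limma, adjusted p = 0.000936). Of 6 class II genes, 5 were higher. CD74, the class II invariant chain, averaged 7.74 ± 0.14 in HaCaT-HRAS and 4.27 ± 0.18 in HaCaT-vector (limma, adjusted p = 7.03e-17), and HLA-DRA 7.10 ± 0.59 and 4.59 ± 0.31 (limma, adjusted p = 1.07e-10). HLA-DMB and HLA-DMA, which load class II peptides, were higher by 1.52 ± 0.18 and 1.49 ± 0.26. CIITA, the class II transactivator, was the 1 class II gene that did not pass, at 4.93 ± 0.11 in HaCaT-HRAS and 4.62 ± 0.31 in HaCaT-vector. IDO1, a tryptophan-degrading enzyme induced by interferon-γ, was higher by 1.98 ± 0.23. Of the TNF-α targets, NFKBIA was higher by 1.28 ± 0.21, and TNFAIP3 (0.55 ± 0.27) and ICAM1 (-0.15 ± 0.36) did not pass.

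Markers of other cells were read beside this. The 4 leukocyte genes averaged 4.07 to 4.20 on the HaCaT-HRAS arrays and 4.13 to 4.32 on the HaCaT-vector arrays. The 3 endothelial genes averaged 6.23 to 6.37 and 4.78 to 4.97, all through CDH5, at 8.55 to 8.73 in HaCaT-HRAS and 4.34 to 4.40 in HaCaT-vector, whereas PECAM1 (5.38 to 5.49 against 5.41 to 5.86) and VWF (4.48 to 5.14 against 4.57 to 4.80) overlapped. The 4 keratinocyte genes averaged 10.7 to 10.9 in HaCaT-HRAS and 11.7 to 11.9 in HaCaT-vector. The part of these values in the lower class I genes was not tested.

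**Figure D4:**
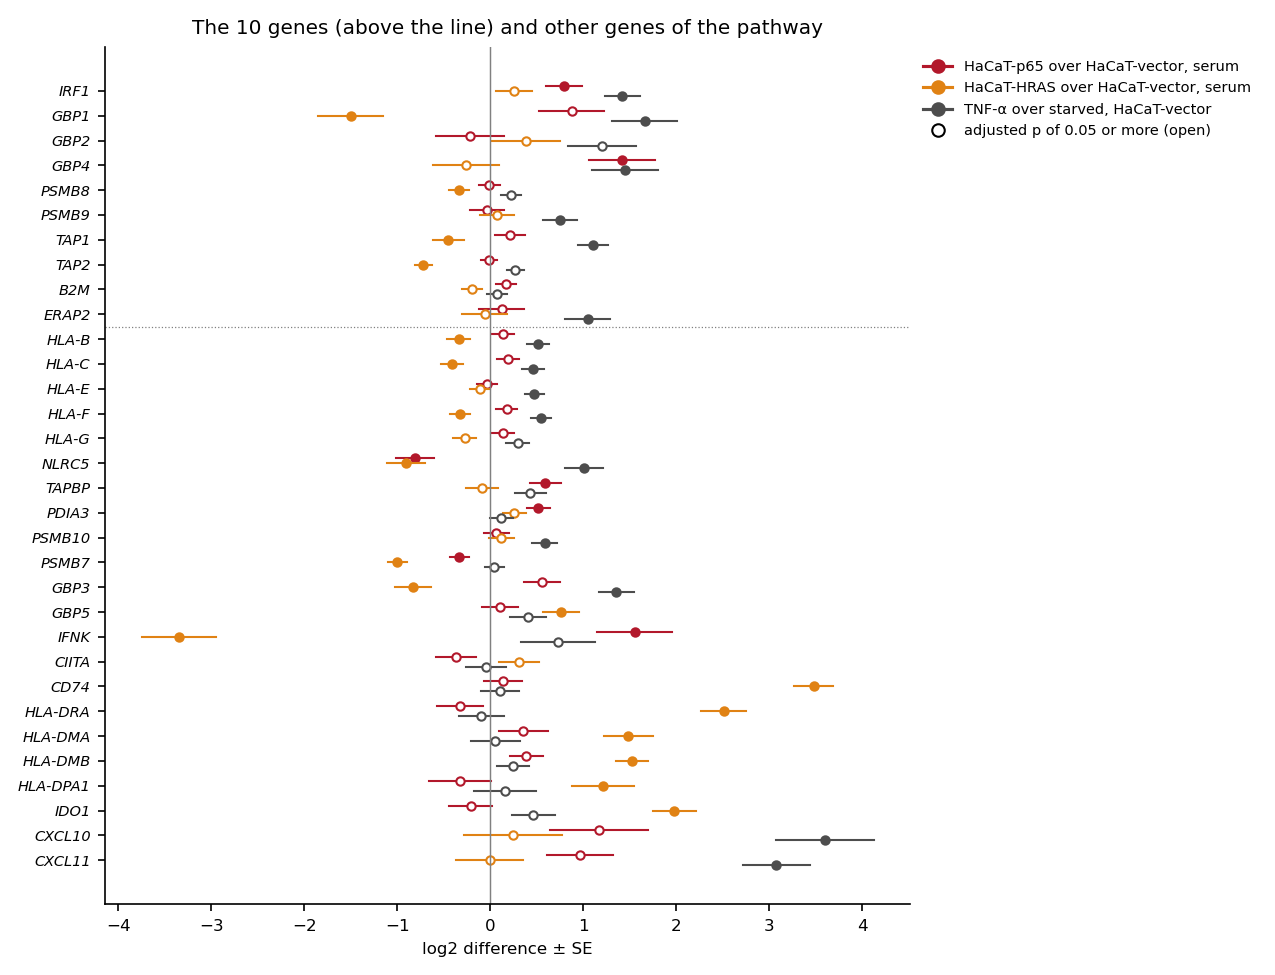
Log2 difference ± SE (horizontal axis) of the 10 genes and of 22 other pathway genes picked after their values were seen, for HaCaT-p65 over HaCaT-vector and HaCaT-HRAS over HaCaT-vector in serum and for TNF-α over starved in HaCaT-vector. Filled points passed the adjusted threshold; class II genes such as CD74 (3.47) lay to the right in HaCaT-HRAS while TAP1, TAP2 and HLA-B lay to the left.

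In HaCaT-p65 in serum, 6 of the 54 pathway genes outside the members were higher and 2 lower than in HaCaT-vector. Of all genes 3.99% were higher, and the share that was lower is not given here. IFNK averaged 9.36 ± 0.42 in HaCaT-p65 and 7.81 ± 0.18 in HaCaT-vector (limma, adjusted p = 0.00891). It averaged 4.46 ± 0.03 in HaCaT-HRAS (SD, n = 3) and 4.72 ± 0.49 in HaCaT-EGFR (SD, n = 5). In unmodified HaCaT it ranged between 4.58 and 7.91. The interferon regulatory factors IRF9 and IRF5 were higher in HaCaT-p65 by 1.17 ± 0.27 and 1.01 ± 0.16, IFNGR2 by 0.63 ± 0.14 and TAPBP, the class I peptide-loading bridge, by 0.59 ± 0.17. NLRC5 averaged 6.59 ± 0.24 in HaCaT-p65 and 7.40 ± 0.08 in HaCaT-vector and was lower (limma, adjusted p = 0.00777). The class I heavy chains gave 0 calls of 5. TNFAIP3, ICAM1 and NFKBIA were all higher, by 1.54 ± 0.27, 1.45 ± 0.36 and 0.68 ± 0.21.

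Between HaCaT-EGFR and HaCaT-vector in serum the 95% interval of the difference was -0.30 to 0.48 for IRF1 and -0.24 to 0.42 for TAP1. GBP1 had 8.92, 8.14, 8.17, 8.59 and 8.23 in HaCaT-EGFR, against 8.38, 7.64 and 7.44 in HaCaT-vector (0.59 ± 0.35, limma, adjusted p = 0.476). With the replicate number as a block GBP1 passed (limma, adjusted p = 0.0413). GBP4 did not overlap, with 4.48, 5.05, 5.15, 4.91 and 4.87 in HaCaT-EGFR against 6.02, 5.26 and 5.23 in HaCaT-vector, and did not pass (-0.61 ± 0.36, limma, adjusted p = 0.459). HaCaT-vector against unmodified HaCaT gave 0 calls among the 10 genes (2.87% of all genes passed), and HaCaT-EGFR against HaCaT gave 0 (3.88% of all genes).

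Starved HaCaT-p65 and starved HaCaT-vector share no processing date, and their comparison runs through arrays of other groups. Of the 10 genes 1 was lower in HaCaT-p65 (2.96% of all genes were), GBP2, at 4.91, 4.64 and 5.50 against 7.17, 7.67, 7.503 and 7.27 in HaCaT-vector. The difference of -2.38 ± 0.50 (limma, adjusted p = 0.00210) stood beside a serum comparison in which GBP2 was at 6.11 ± 0.19 in HaCaT-p65 and 6.33 ± 0.52 in HaCaT-vector (SD, n = 3 each, 1 date). It was lost without 1 starved HaCaT-vector array, the one at 7.27. With no date term 5 genes passed, all lower in HaCaT-p65, which were GBP2, GBP4, PSMB8, PSMB9 and ERAP2. The fitted date coefficients were at most 1.17e-08, so that fit changes the standard errors and not the estimates. It ignores that the groups share no date, and its calls add no support. In starved HaCaT-EGFR 0 genes passed against HaCaT-vector (7.89% of all genes did), and serum over starved in HaCaT-EGFR gave 0 (3.25% of all genes).

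EGF lowered IRF1 in HaCaT-EGFR. There, IRF1 had a lowest, median and highest value of 7.48, 7.67 and 7.85 with EGF, and it averaged 7.63 ± 0.15 with EGF and 8.21 ± 0.18 starved (SD, n = 7 each), with no overlap. It was the 1 gene of the 10 that passed, with a difference of -0.57 ± 0.13 (limma, adjusted p = 0.00220), where 4.93% of all genes were lower. Within each of the 3 dates that hold both groups IRF1 was lower with EGF, with differences of -0.74, -0.71 and -0.37. In HaCaT-vector IRF1 stood at 7.56, 7.80, 7.71 and 7.79 with EGF, against 8.15, 8.17, 8.16 and 8.06 starved. The groups did not overlap there either, but the change of -0.42 ± 0.17 did not pass (limma, adjusted p = 0.340) and 0 genes of the 10 did (1.01% of all genes).

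Inhibitor arrays were few. TAP2 stood at 8.03 and 7.91 on the 2 HaCaT-EGFR arrays with gefitinib and EGF, below the lowest of 7 arrays with EGF alone (8.22), and was the 1 gene of the 10 that passed (-0.36 ± 0.09, limma, adjusted p = 0.0331), where 1.08% of all genes were lower. The call was lost without either gefitinib array and without either of 2 EGF arrays. With gefitinib in serum, a comparison chosen after its values were seen, GBP1 stood at 9.47 and 9.34 against 8.92, 8.14, 8.17, 8.59 and 8.23 in serum alone. GBP2 stood at 7.56 and 7.96 against 6.86, 6.08, 6.08, 6.62 and 6.06. Neither gene overlapped between the groups, and neither passed (limma, adjusted p = 0.292 and 0.0992), nor did any other of the 10 (1.79% of all genes passed). On the single array with U1026 and EGF in HaCaT-EGFR, 9 of the 10 genes stood above every array with EGF alone, where 20.1% of all genes did, and in HaCaT-vector 5 did, where 31.7% of all genes did. The same 5 were among the 9, and 11% of all genes stood above in both lines. The U1026 arrays stood below every EGF array for 0 of the 10 in HaCaT-EGFR (18.5% of all genes) and for 2, GBP2 and TAP2, in HaCaT-vector (30.1% of all genes). With LY294002 and EGF 0 of the 10 stood above in either line, where 17.9% of all genes did in HaCaT-EGFR and 28% in HaCaT-vector. Below every EGF array stood 0 of the 10 with LY294002 in HaCaT-EGFR (16.8% of all genes) and 5 in HaCaT-vector (30.2% of all genes), which were GBP1, GBP2, PSMB8, TAP1 and TAP2. These single arrays allow no test.

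Over the 12 conditions without inhibitors, HaCaT-vector with TNF-α was the highest for every gene but TAP2, whose mean of 8.38 was shared by HaCaT-vector in serum, HaCaT in serum and HaCaT-vector with TNF-α. HaCaT-HRAS in serum was the lowest for GBP1, PSMB8, TAP1, TAP2, B2M and ERAP2. For TAP1, B2M and ERAP2 its arrays overlapped those of the next condition. The ERAP2 mean of 6.77 was close to the 6.79 of starved HaCaT-p65. The distance between the highest and lowest condition mean was 3.59 for GBP2, 2.85 for GBP1, 2.48 for GBP4, 1.92 for IRF1, 1.91 for ERAP2, 1.63 for TAP1, 1.42 for PSMB9, 1.08 for PSMB8, 0.72 for TAP2 and 0.40 for B2M.

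**Figure D5:**
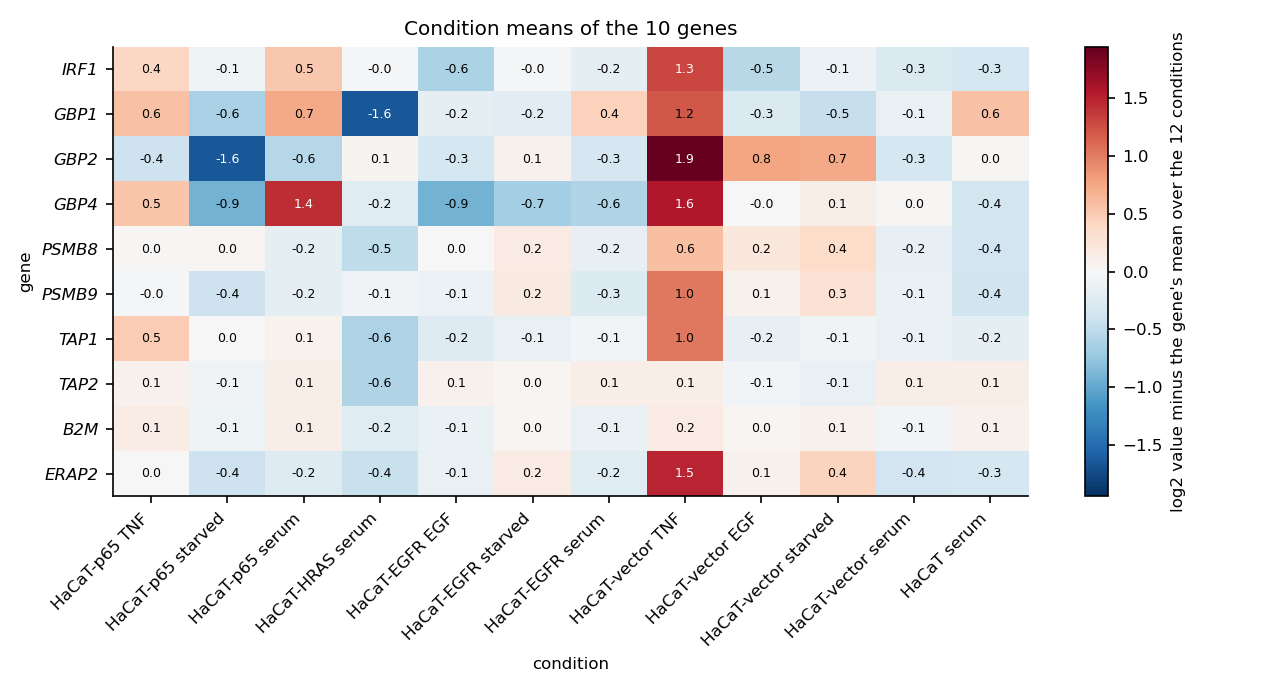
Mean log2 value of each of the 10 genes (rows) in the 12 conditions without inhibitors (columns), minus the mean of the gene over those conditions; red is above and blue below it. HaCaT-vector with TNF-α is above 0 in every row, and GBP1, PSMB8, TAP1 and TAP2 have their lowest values in HaCaT-HRAS in serum.

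Ordered by level, IRF1 was at 9.56 ± 0.26 in HaCaT-vector with TNF-α (SD, n = 3), then at 8.77 ± 0.25 in HaCaT-p65 in serum (n = 3) and 8.65 ± 0.52 in HaCaT-p65 with TNF-α (n = 5). Only the first step in this order was free of overlap. The order keeps the array of doubtful label in HaCaT-p65 with TNF-α and was not redone without it. A HaCaT-p65 array with TNF-α (9.37) lay above the lowest HaCaT-vector array with TNF-α (9.33). HaCaT-HRAS in serum (8.23), HaCaT-EGFR starved (8.21), HaCaT-p65 starved (8.17), HaCaT-vector starved (8.14), HaCaT-EGFR in serum (8.07), HaCaT-vector in serum (7.98) and HaCaT in serum (7.90) followed, each overlapping the next. HaCaT-vector with EGF (7.71) and HaCaT-EGFR with EGF (7.63) came last.

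GBP1 had a different order, led by HaCaT-vector with TNF-α (9.17 ± 0.11, n = 3), HaCaT-p65 in serum (8.70 ± 0.53, n = 3) and HaCaT in serum (8.54 ± 0.34, n = 3), with HaCaT-HRAS in serum (6.32 ± 0.26, n = 3) last. The last step, below starved HaCaT-p65 (7.33 ± 0.16, n = 3), was the 1 step with no overlap. For TAP1 no neighbours in the order were free of overlap, and HaCaT-vector with TNF-α (9.63 ± 0.17, n = 3), HaCaT-p65 with TNF-α (9.09 ± 0.43, n = 5) and HaCaT-p65 in serum (8.66 ± 0.07, n = 3) led it. The orders of GBP1 and TAP1 keep the array of doubtful label, at 7.06 for GBP1 and 8.38 for TAP1, and were not redone without it. For TAP1 only that array made HaCaT-p65 with TNF-α overlap HaCaT-p65 in serum (8.60 to 8.73).

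Across the 12 condition means, which share arrays of few lines and dates, the closest pair among the members was PSMB9 and ERAP2 (Pearson r = 0.961), which lie on different chromosomes. PSMB9 and GBP2 had r = 0.865 and IRF1 and TAP1 r = 0.824, whereas TAP2 had r = 0.0331 with PSMB9 and -0.00523 with GBP2. Among all genes, the 5 most like IRF1 over the same means were DTX3L (0.963), EFNA1 (0.962), CXCL11 (0.923), ALOX5AP (0.91) and CXCL10 (0.909), and the 5 most like TAP1 were NFKBIE (0.971), IFIT5 (0.955), C1QTNF1 (0.948), NINJ1 (0.944) and SLC8B1 (0.943). These are descriptions over 12 means with no test.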

How the data were processed

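RNA of 58 samples was measured on Affymetrix U133 Plus 2.0 arrays. Per the study's methods, the authors summarized the probe sets with fRMA, fitted condition and processing date with limma and removed the date effect. The methods do not say at which step the deposited processed values were taken. No further normalization was applied to the deposited log2 values. The platform annotation gave a single symbol to 41097 of 54675 probe sets, more than 1 symbol to 1801 and no symbol to 11777. Each gene was read through its brightest single-symbol probe set on average. A linear model with terms for 18 conditions and 6 dates (35 residual degrees of freedom) was fitted with limma 3.58.1 under R 4.3.3, with Benjamini-Hochberg adjustment over 19775 genes and a threshold of 0.05. Figures and sequences were made in Python. The fitted date coefficients were at most 1.17e-08, so the deposited values already had the date effect removed. The date was kept in the model because its removal uses degrees of freedom. Fits with no date term therefore keep the estimates and change only the standard errors, and calls gained in them add no support. The sequences are from RefSeq, GRCh38.p14.

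The members were given, and all 10 passed into the test with no filter on low values. The members, the pathway lists and the tests were chosen with earlier results of these data known. Named genes are the 10 members, the TNF-α check genes NFKBIA, TNFAIP3 and ICAM1, the interferon genes, and up to 6 called pathway genes per main comparison in order of absolute change; exceptions are marked in the text.

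Array number limits the precision. In simulated data with known changes in 50 genes of each size, for TNF-α in HaCaT-p65 40% of genes changed by 0.5 and 84% of those changed by 1 on the log2 scale passed; for TNF-α in HaCaT-vector these were 32% and 80%. Arrays with the same replicate number deviated together in HaCaT-HRAS and HaCaT-vector in serum (3 pairs, r between 0.191 and 0.527) and in HaCaT-EGFR and HaCaT-vector in serum (3 pairs, 0.216 to 0.529). This pairing comes from the values and not from the labels. Alternatives tried were every single-symbol probe set, no date term, the compared groups alone, a replicate block, median centring, a filter on low values, trend and robust variances, no 8 h arrays, no array of doubtful label, and each array left out.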

Additional observations from a re-analysis of the deposited data

Results flagged for a closer look

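Within groups of 4 to 10 arrays, 60 sets of values of the 10 genes were searched for a lone array, and chance marks about 1 in 20 such groups. One was found. GBP2 on the HaCaT-p65 array labelled TNF-α at 4 h, replicate 3, stood at 4.98, while the nearest of the other 4 TNF-α arrays stood at 6.32. The same array is described as a 4 h control in the study's sample sheet, and the 3 starved HaCaT-p65 arrays ranged between 4.64 and 5.50 for GBP2.

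The single arrays with the MEK inhibitor U1026 and EGF entered no tested comparison. Of the 10 genes, 5 stood above every array with EGF alone in both lines (11% of all genes did). IRF1 was at 8.19 with U1026 in HaCaT-EGFR, against 7.48 to 7.85 on 7 arrays with EGF alone, and at 8.30 with U1026 in HaCaT-vector, against 7.56 to 7.80 on 4 such arrays. GBP1 was at 8.77 against 6.82 to 8.28 in HaCaT-EGFR and at 8.13 against 7.47 to 7.83 in HaCaT-vector. GBP4 was at 5.14 against 3.81 to 4.97 and at 5.90 against 5.31 to 5.76. PSMB8 was at 8.78 against 8.21 to 8.70 and at 8.78 against 8.64 to 8.66, and PSMB9 at 7.92 against 7.04 to 7.91 and at 7.83 against 7.48 to 7.74. Below every such array in HaCaT-vector stood GBP2 and TAP2. GBP2 was at 7.72 against 5.34 to 6.99 in HaCaT-EGFR and at 7.13 against 7.23 to 7.56 in HaCaT-vector, and TAP2 at 8.26 against 8.22 to 8.49 and at 8.13 against 8.14 to 8.24. Each inhibitor condition is 1 array, so none of this was tested.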

How the results depend on the processing

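Under the alternatives no result reversed. For TNF-α in HaCaT-p65 the count of 3 genes became 1 with every probe set, 4 with no date term (TAP1 added), 3 with the filter (TAP1 added and GBP4 removed), 0 with the compared groups alone, 0 with a replicate block, 0 without 8 h arrays, 7 without the array of doubtful label and 5 without both (the last chosen after seeing the data), and 0 to 7 with 1 array left out. For TNF-α in HaCaT-vector, the count of 6 became 7 with no date term and with the groups alone (GBP2 added), 5 with the block (PSMB9 lost) and 5 with the filter or without 8 h arrays (GBP4 lost), and leaving out 1 array gave 2 to 5; IRF1 and TAP1 passed in each. The difference of both responses gave 0 to 1. In serum, HaCaT-p65 over HaCaT-vector gave 1 with the filter, which removes GBP4, 3 with the block (GBP1 added, adjusted p = 0.00759 with limma) and 1 to 2 with 1 array left out. HaCaT-HRAS over HaCaT-vector gave 3 with every probe set (TAP1 lost), 3 with the groups alone (PSMB8 lost) and 2 to 3 with 1 array left out, and all 4 calls held with the block. HaCaT-EGFR over HaCaT-vector gave 1 with the block. HaCaT-p65 over HaCaT gave 1 with the groups alone and with the block (IRF1 lost, adjusted p = 0.0944 and 0.067 with limma) and 1 with the filter, which removes GBP4. HaCaT-HRAS over HaCaT gave 4 with no date term and with the filter (TAP1 added), 2 with the groups alone and with the block (B2M lost), and 2 to 3 with 1 array left out. Starved HaCaT-p65 over HaCaT-vector gave 5 with no date term, with the groups alone and with the block, and 0 to 1 with 1 array left out. Starved HaCaT-EGFR over HaCaT-vector gave 2 and serum over starved gave 3 with no date term. EGF in HaCaT-vector gave 1 with the groups alone, and EGF in HaCaT-EGFR 1 to 2 with 1 array left out. Gefitinib with EGF gave 0 with every probe set, 0 with the groups alone, 0 without 8 h arrays and 0 to 1 with 1 array left out. Gefitinib in serum gave 1 with no date term. The causes were not tested. Apart from the serum pairs named under processing, shared numbers did not mark paired arrays, and 1 shared number allowed no block for gefitinib.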
